A study of Mus musculus with 12 samples.

Results

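Cultured type II alveolar epithelial cells that lacked Gna11 were compared with such cells that lacked Gna12, whatever the second deletion. Of the 12 arrays in the series all 12 entered the comparison, 6 on each side. The Gna11-lacking side held 3 arrays labelled Gna11 ko and 3 labelled Gnaq/Ga11 ko (Gna11 alone deleted, or Gnaq with it). The Gna12-lacking side held 3 arrays labelled Gna12 ko and 3 labelled Gna12/Ga13 ko (Gna12 alone, or Gna13 with it). Membership was read from the array titles only, and single or double deletion was kept as a second factor. The cells were isolated from lungs and spent 7 days on collagen-coated plastic, in a bronchial epithelial medium that contained keratinocyte growth factor but no hydrocortisone (per the labels). They were otherwise untreated, and RNA was amplified from 10 ng per array. Every array came from a knockout mouse, so which side departs from wild-type cells cannot be told. The labels give no deletion strategy, strain, sex or age of the mice. The labels do not say that the 3 samples of a genotype came from separate animals, so p-values measure only the spread between these samples. Each description also carries a plate-like code, with column 02 for every Gna11-lacking and column 04 for every Gna12-lacking array. This position and the genotype thus cannot be told apart. The letters of the code were B to D for every single and E to G for every double knockout array. The letter and the second deletion therefore cannot be told apart either.

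Gna11 and Gnaq encode the alpha subunits of the G proteins G11 and Gq, which link receptors at the cell surface to phospholipase C beta, calcium release and protein kinase C. Gna12 and Gna13 encode the alpha subunits of G12 and G13, which act through guanine nucleotide exchange factors on RhoA and the actin cytoskeleton. In the lung alveolus, type II cells make and recycle surfactant and give rise to the flat type I cells. In culture they tend to lose surfactant gene expression and to take on features of type I or keratin-rich transitional cells.

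The cells were checked against markers of the labelled type and of other types. All 16 measured type II markers averaged at or above 5.08, the median of all probe sets, over the 12 arrays. Their mean level was 10.9 to 11.2 per Gna11-lacking array and 10.3 to 10.8 per Gna12-lacking array (log2 scale, as are all levels below). Genes of other cell types also reached that median: this held for 20 of 20 pan-leukocyte genes and 15 of 16 macrophage genes. It held as well for 14 of 17 airway genes, 15 of 16 type I markers and 12 of 16 endothelial genes. The airway genes Scgb3a1 (mean 13.4) and Scgb1a1 (13.2) were about as bright as the surfactant gene Sftpc (13.2), and the type I marker Ager averaged 13.4. The mean of the pan-leukocyte genes was 8.47 to 9.13 in Gna11, 9.52 to 9.56 in Gnaq/Gna11, 9.57 to 10.2 in Gna12 arrays and 9.13 to 9.98 in Gna12/Gna13 arrays. These ranges lie lowest in the Gna11 single knockouts, so leukocyte gene levels moved with the comparison among single knockouts. The difference between 3′ and 5′ probe sets of Gapdh, a measure of RNA shortening, was 3.46 to 4.03 in Gna11, 3.01 to 3.26 in Gnaq/Gna11, 2.67 to 3.25 in Gna12 arrays and 2.99 to 3.33 in Gna12/Gna13 arrays. The Y-linked gene Eif2s3y was at or above the median in 2 of 6 Gna11-lacking and 4 of 6 Gna12-lacking arrays. It was low in all 3 Gnaq/Gna11 arrays (3.33 to 3.54), whose Xist levels of 7.29 to 9.31 were the highest, and was at or above the median in 2 of 3 arrays of each other genotype. These signs of sex thus moved with the comparison of double knockouts. The first principal component of all genes held 27.7% of the variance and set the 6 Gna11-lacking arrays (-37.2 to -17.9) apart from the 6 Gna12-lacking arrays (20.4 to 37.4).

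**Figure D1:**
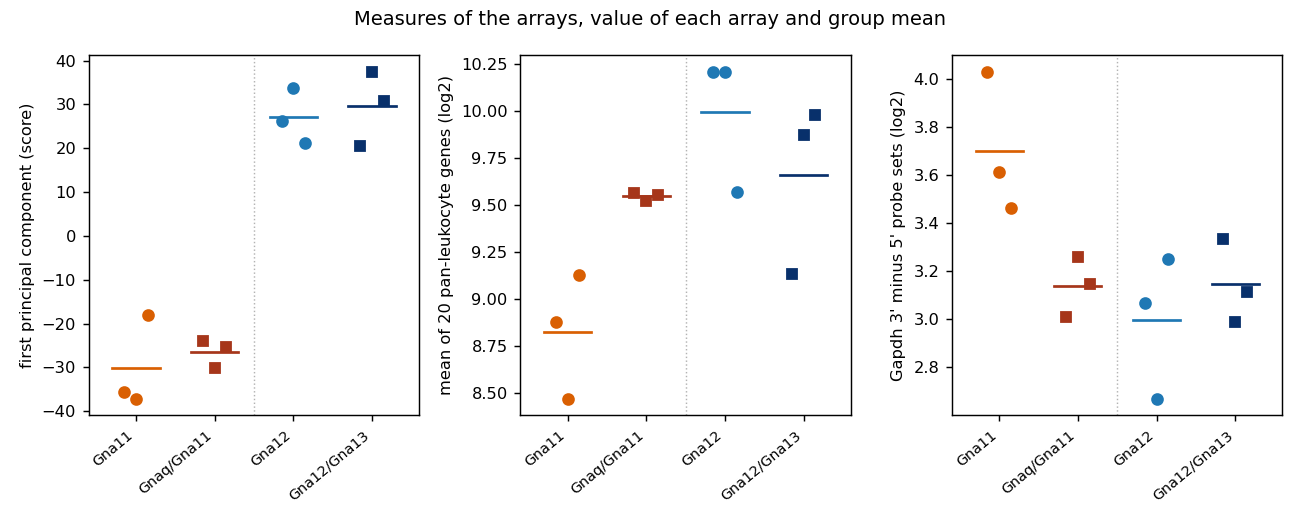
Measures of the 12 arrays, 1 panel per measure, with a point per array, a bar at each genotype's mean and the Gna11-lacking genotypes left of the dotted line. The pan-leukocyte mean is lowest in the Gna11 arrays (8.47 to 9.13), and the 3′ minus 5′ difference of Gapdh is highest there (3.46 to 4.03).

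Across 18193 genes, 2244 (12.3%) differed between Gna11-lacking and Gna12-lacking cells at an adjusted p under 0.05 (limma, Benjamini-Hochberg over all genes). Of these, 1066 (5.86% of all genes) were higher and 1178 (6.48%) were lower in Gna11-lacking cells, and 526 differed at least 2-fold. The median difference over all genes was 0.05. The 6 arrays of 1 side did not overlap with the 6 of the other for 1045 genes (5.74%), and 899 of the called genes were among them. Adding the mean of the pan-leukocyte genes to the model left 67 calls, of which 64 belong to the 2244. Adding the Gapdh measure instead left 146, of which 143 belong to them. The parts of leukocyte RNA and of RNA shortening in the remaining calls were not separated further. Leaving out replicate 2 of Gna12/Gna13 gave 1114 calls, and leaving out replicate 1 or 2 of Gna12 gave 1474 or 1310.

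The comparison can be made within single and within double knockouts, which share no array. Among single knockouts, Gna11 against Gna12, 513 genes (2.82%) were called, 197 higher and 316 (1.74%) lower in Gna11 cells. With the 6 arrays of that comparison alone 22 genes were called. With the leukocyte or the Gapdh covariate limma called 0, with 1202 and 1387 at an unadjusted p under 0.05. Between the double knockouts 1109 genes (6.1%) were called, with 492 (2.7%) higher and 617 (3.39%) lower in Gnaq/Gna11 than in Gna12/Gna13 cells. With the leukocyte covariate 1000 were called, 922 of them shared, and with the Gapdh covariate 1122, of which 1009 were shared. The singles count was 210 or 232 without replicate 1 or 2 of Gna11, 329 or 296 without replicate 2 or 3 of Gnaq/Gna11, 139 or 62 without replicate 1 or 2 of Gna12, and 312 without replicate 2 of Gna12/Gna13. The doubles count was 521 or 525 without replicate 2 or 3 of Gnaq/Gna11, and 565 or 369 without replicate 1 or 2 of Gna12/Gna13. In all, 150 genes were called in both pairs, which is 29.2% of the singles calls and 13.5% of the doubles calls. All 150 had the same direction in both pairs, 86 higher and 64 lower in Gna11-lacking cells. For 147 of them the arrays of the sides did not overlap, against 5.74% of all genes. That is partly fixed, because the 150 were picked by their differences in the same arrays. Of the 2244 genes, 2176 (97%) had the same sign in both pairs, against 66.6% of all genes, and this share is partly fixed because both pairs make up the contrast. Only 13 genes (0.0715%) had a difference that itself changed between double and single knockouts, with 1967 at an unadjusted p under 0.05 and 0 to 40 called when any 1 array was left out.

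**Figure D2:**
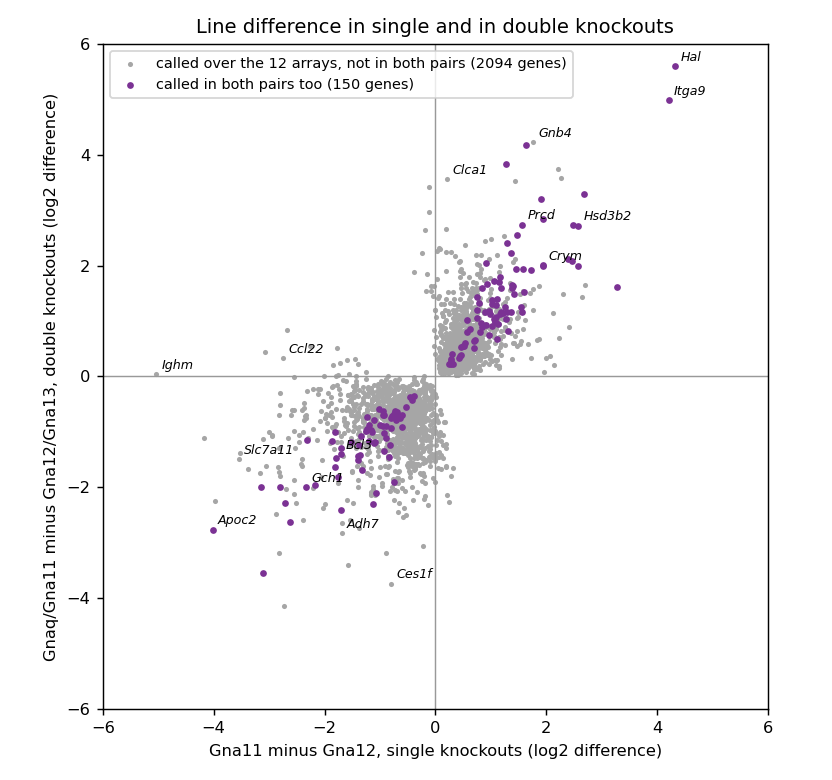
Log2 difference of each of the 2244 called genes in single knockouts (Gna11 minus Gna12, horizontal) against that in double knockouts (Gnaq/Gna11 minus Gna12/Gna13, vertical). The 150 genes called in both pairs (purple) lie at the upper right (86) and the lower left (64), and Hal and Itga9 lie farthest out at the upper right.

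For 8 genes the nearest arrays of the sides were at least 1 log2 unit apart. They were picked out after their values were seen, and 6 were higher and 2 lower in Gna11-lacking cells. The 100 bases before the start of 3 of them are shown because these genes carry the clearest separation, read from the RefSeq promoter table of GRCm38.p6 and written in the direction of transcription. Capitals mark a TATAA motif, searched on both strands.
Hal, chr10:93488668-93488767, plus strand: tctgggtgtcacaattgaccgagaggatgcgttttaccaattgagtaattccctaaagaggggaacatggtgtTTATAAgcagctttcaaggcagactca
Itga9, chr9:118711592-118711691, plus strand: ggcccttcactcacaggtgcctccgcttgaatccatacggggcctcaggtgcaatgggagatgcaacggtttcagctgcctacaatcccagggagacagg
Gch1, chr14:47189414-47189513, minus strand: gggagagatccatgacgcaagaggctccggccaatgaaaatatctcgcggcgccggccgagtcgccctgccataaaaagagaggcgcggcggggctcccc
The Hal window holds the motif on both strands, overlapping, 26 and 27 bases before the gene's start, and the Itga9 and Gch1 windows do not hold these letters. In the 250 bases before the start, the motif occurred in 18.8% of 14452 measured genes with an entry, in 18% of the higher and in 17.7% of the lower genes.

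Hal, histidine ammonia-lyase, catalyses the first step of histidine breakdown. Its level was 9.64, 9.01 and 8.68 in Gna11 and 10.6, 10.0 and 10.7 in Gnaq/Gna11 arrays, against 4.47, 4.60 and 5.27 in Gna12 and 4.55, 5.07 and 4.88 in Gna12/Gna13 arrays. No array of either side came within 3.41 log2 units of the other side, and all 6 Gna12-lacking arrays lay near the middle of all probe sets or below it. The difference was 4.96 ± 0.215 (SE, limma adjusted p = 1.57e-06). No fold is given, since the Gna12-lacking level was not shown to be above background. It was 4.33 between single and 5.60 between double knockouts.

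Itga9 encodes the integrin alpha 9 subunit, which binds tenascin C and other matrix ligands. Arrays of Gna11 cells had 11.0, 10.8 and 10.5 and those of Gnaq/Gna11 cells 11.1, 10.9 and 10.9, against 6.70, 6.50 and 6.37 in Gna12 and 6.43, 6.57 and 4.92 in Gna12/Gna13 arrays. The sides were 3.75 log2 units apart at their nearest, the widest gap of any gene. The 24.2-fold difference (4.60 ± 0.255, adjusted p = 1.18e-05) was 4.21 in single and 4.98 in double knockouts. Hal and Itga9 also passed with the leukocyte covariate, with differences of 4.86 (adjusted p = 0.000836) and 4.29 (adjusted p = 0.00478).

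Gch1, the GTP cyclohydrolase that begins tetrahydrobiopterin synthesis, had the opposite direction. It ranged from 4.86 to 6.11 (median 5.65) in Gna11-lacking and from 7.43 to 8.13 (median 7.71) in Gna12-lacking arrays. The ranges did not overlap, and the level was 4.5-fold lower in Gna11-lacking cells (-2.17 ± 0.139, adjusted p = 3.53e-05). Bcl3, a nuclear IkB-family partner of NF-kB, was 7.05 to 7.42 (median 7.28) against 8.42 to 9.16 (median 8.80), and differed by -1.55 ± 0.145 (adjusted p = 0.000243).

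Prcd, a small protein of photoreceptor discs, was 9.96 to 11.3 (median 10.7) in Gna11-lacking and 8.10 to 8.86 (median 8.41) in Gna12-lacking arrays, 4.44-fold higher (2.15 ± 0.141, adjusted p = 3.53e-05). Hsd3b2, a steroid dehydrogenase, was 5.89 to 7.29 (median 7.16) against 3.96 to 4.50 (median 4.06), a difference of 2.65 ± 0.273 from values below the probe set median (adjusted p = 0.000455). Crym, a cytosolic thyroid hormone binding protein, was 7.48 to 8.38 (median 7.55) against 5.61 to 6.09 (median 5.80), 3.94-fold higher (adjusted p = 0.000506). The histone gene H2bc21 was 5.69 to 6.55 (median 6.16) against 3.96 to 4.48 (median 4.33), a difference of 1.82 ± 0.163 (adjusted p = 0.000213). None of the 4 overlapped between the sides. Of the 8 genes only Hsd3b2 missed the threshold under any of the 25 alternatives, at an adjusted p of 0.0504 with the leukocyte covariate. Families with closely related members (Hsd3b, H2b histones, Klk, Ces1 and Gst genes) can cross-hybridise, which was not tested.

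**Figure D3:**
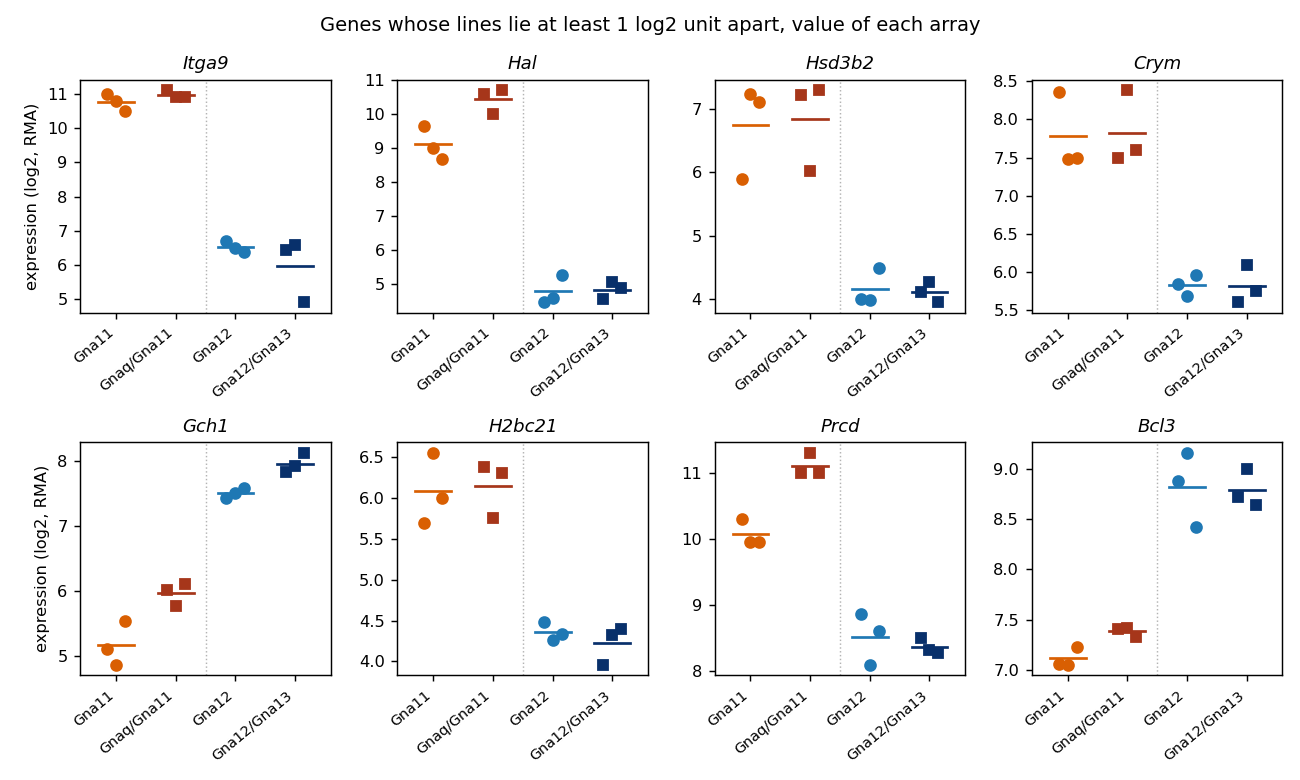
Log2 level in each of the 12 arrays for the 8 genes whose sides lie at least 1 log2 unit apart, with Gna11-lacking genotypes left of the dotted line. Hal and Itga9 show gaps of 3.41 and 3.75, while Gch1 and Bcl3 are lower in all 6 Gna11-lacking arrays.

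The deleted genes were then read in every probe set, with the same model fitted to 45037 probe sets, of which 3399 (7.55%) were called. Gna11 had 2 probe sets. Probe set 1434254_at was 6.86 to 7.83 (median 7.19) in Gna11-lacking and 7.98 to 8.57 (median 8.39) in Gna12-lacking arrays, without overlap (-1.11 ± 0.177, limma adjusted p = 0.00605). The other, 1449144_at, which stands for the gene in the per-gene analysis, differed by 0.13 (adjusted p = 0.857). Of 5 Gna12 probe sets only 1421026_at was called, at 3.35 to 3.73 (median 3.55) in Gna11-lacking against 3.12 to 3.37 (median 3.20) in Gna12-lacking arrays (0.32 ± 0.0754, adjusted p = 0.031). The 2 ranges overlap, and both lie far below the median of all probe sets. The brightest Gna12 probe set, 1439206_at, stands for the gene in the per-gene analysis and went the other way. It was 6.46 to 6.78 in Gna11-lacking against 6.64 to 7.15 in Gna12-lacking arrays (-0.28, limma adjusted p = 0.185). Probe set 1455008_at, also brighter than 1421026_at, did not overlap between the sides (5.97 to 6.22 against 5.61 to 5.91). It differed by 0.31 with an adjusted p of 0.0991.

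Gnaq, deleted in the Gnaq/Gna11 arrays only, was called in 1 of 7 probe sets. Probe set 1429559_at had 7.38, 7.31 and 8.20 in Gna11 and 7.07, 7.02 and 6.21 in Gnaq/Gna11 arrays, against 7.76 to 8.56 in Gna12-lacking arrays (-0.99 ± 0.232, adjusted p = 0.0287). None of the 7 Gna13 probe sets was called. The labels do not say which part of each gene was deleted, so a probe set that did not differ checks nothing.

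Among genes with non-overlapping sides, the 15 largest higher and 15 largest lower differences were named, leaving out clone and predicted names and genes below the probe set median in both sides. Besides Hal, Itga9 and Hsd3b2, several of the higher genes encode secreted or signalling proteins. Cma1, a mast cell chymase, was 6.62 to 9.03 (median 8.07) in Gna11-lacking and 3.87 to 6.05 (median 4.73) in Gna12-lacking arrays (2.98 ± 0.45, adjusted p = 0.00307). Ptgds, a prostaglandin D synthase, was 8.65 to 10.4 (median 9.34) against 5.68 to 8.13 (median 5.92), with the same difference of 2.98 ± 0.4 (adjusted p = 0.00193). Neither gene overlapped between the sides.

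Il33 encodes an alarmin cytokine held in epithelial nuclei and released on damage. It was 9.66 to 11.5 (median 10.8) in Gna11-lacking and 7.02 to 9.29 (median 8.16) in Gna12-lacking arrays (2.39 ± 0.324, adjusted p = 0.00196). The ranges stood apart, and the difference was 1.95 between single and 2.84 between double knockouts. With the leukocyte covariate it was 2.16 (adjusted p = 0.0998). Klk1, a tissue kallikrein that frees kinins, was 9.53 to 10.7 (median 10.2) against 6.17 to 8.68 (median 7.84), and kept an adjusted p of 0.0385 with that covariate (2.45 ± 0.28, adjusted p = 0.000885 without it). Its relative Klk13 was 9.94 to 10.8 (median 10.4) against 8.64 to 9.46 (median 8.85), also without overlap (1.48 ± 0.177, adjusted p = 0.00107).

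Orm2, an acute-phase plasma protein gene, was 4.06 to 6.94 (median 5.87) in Gna11-lacking and 2.77 to 3.85 (median 3.20) in Gna12-lacking arrays (2.56 ± 0.296). Tshb, the beta subunit of thyrotropin, was 8.40 to 9.70 (median 8.81) against 6.07 to 7.54 (median 6.43), a difference of 2.29 ± 0.313. Both passed the test (adjusted p = 0.000906 and 0.00204), and their sides did not overlap. Phgr1 was 8.15 to 11.2 (median 9.74) against 6.41 to 7.75 (median 6.62), and its difference was 1.63 in single and 4.17 in double knockouts (adjusted p = 0.000162 over the 12 arrays). Veph1, a pleckstrin homology domain protein, behaved likewise, at 1.28 in single and 3.84 in double knockouts (adjusted p = 0.000162). The difference between these differences was not called for either gene.

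The other higher genes were Hyi (a hydroxypyruvate isomerase, 2.61), Adat2 (a tRNA adenosine deaminase, 2.28), the oestrogen-regulated Greb1 (2.26), and Elobl (an elongin B-like gene, 2.18), with limma adjusted p between 0.000506 and 0.00538. Of the 15 higher genes 7 stayed called with the leukocyte covariate, 12 of all 30 did with the Gapdh covariate, and all 30 did with Eif2s3y as a covariate.

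Several of the 15 lower genes are known from myeloid cells. S100a9, a calprotectin subunit of neutrophils and monocytes, was 6.31 to 8.97 (median 7.27) in Gna11-lacking and 9.31 to 12.1 (median 10.6) in Gna12-lacking arrays. Its level was 10.1-fold lower in Gna11-lacking cells (-3.33 ± 0.498, adjusted p = 0.003), and no array of the sides overlapped. Its partner S100a8 differed by -1.77 ± 0.392 (adjusted p = 0.0178), with overlap. Apoc2, the cofactor of lipoprotein lipase, was 6.64 to 9.32 (median 7.85) against 10.1 to 12.3 (median 11.4), 10.6-fold lower (adjusted p = 0.00216).

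Il10, an anti-inflammatory cytokine, was 4.74 to 7.29 (median 5.61) in Gna11-lacking and 7.69 to 9.17 (median 8.22) in Gna12-lacking arrays, 5.92-fold lower without overlap (-2.57 ± 0.329, adjusted p = 0.00149). Clec1b, a C-type lectin receptor of platelets and myeloid cells, was 4.32 to 8.70 (median 7.62) against 8.80 to 11.0 (median 10.5), a difference of -3.12 ± 0.636 (adjusted p = 0.0122). Siglece, an inhibitory sialic acid receptor of myeloid cells, was 5.55 to 6.42 (median 5.91) against 7.38 to 9.65 (median 8.11), a difference of -2.40 ± 0.371 (adjusted p = 0.00344). The chemokine receptor gene Ccr1 also differed by -2.40 (adjusted p = 0.00618). None of these 4 stayed called with the leukocyte covariate, where Il10 differed by -1.91 (adjusted p = 0.101), Clec1b by -1.52 (0.401), Siglece by -1.54 (0.178) and Ccr1 by -1.40 (0.271).

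Slc7a11, the cystine importer that feeds glutathione synthesis, was 3.63 to 6.90 (median 6.04) in Gna11-lacking and 7.29 to 8.92 (median 8.07) in Gna12-lacking arrays (-2.52 ± 0.455, adjusted p = 0.00674). The sides did not overlap, and the difference was -3.55 between single and -1.50 between double knockouts. Hamp, the iron hormone hepcidin, was 4.39 to 5.42 (median 4.92) against 5.73 to 9.44 (median 7.58), a difference of -2.45 ± 0.486 (adjusted p = 0.0108). Anxa8, an annexin, was 7.46 to 9.96 (median 8.87) against 10.9 to 11.6 (median 11.4), a difference of -2.50 ± 0.367 (adjusted p = 0.00278).

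Ceacam10, a cell adhesion molecule of the carcinoembryonic antigen family, was alone among the 15 lower genes in staying called with the leukocyte covariate (adjusted p = 0.0385). It was 3.87 to 7.08 (median 5.69) in Gna11-lacking and 7.24 to 8.67 (median 8.38) in Gna12-lacking arrays, without overlap. The difference was -4.18 between single and -1.11 between double knockouts, and only the first of these passed alone (adjusted p = 0.000609 and 0.0977). The remaining lower genes were Ankrd33b (-3.44), the opposite-strand transcript Tnfsf13os (-3.00), the vesicle-tethering gene Vps52 (-2.68), Mst1, which encodes macrophage-stimulating protein (-2.63), and the testis-expressed Tex33 (-2.49). Their limma adjusted p lay between 0.00258 and 0.0297.

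Genes of the G protein pathways were followed from receptors to transcriptional targets. Of 15 receptor and ligand-enzyme genes for lysophosphatidic acid, sphingosine 1-phosphate and thrombin, 3 were higher and 1 was lower in Gna11-lacking cells, against a background of 12.3% called. Sphk2, a sphingosine kinase, was 11.5 to 12.1 (median 11.8) in Gna11-lacking and 10.2 to 11.1 (median 10.6) in Gna12-lacking arrays, without overlap (1.18 ± 0.167, adjusted p = 0.00231). The thrombin receptor F2r differed by 0.95 (adjusted p = 0.0361) and the sphingosine 1-phosphate receptor S1pr2 by 0.71 (adjusted p = 0.0433). F2r averaged 3.98 in Gna11-lacking and 3.03 in Gna12-lacking arrays, both below the probe set median. Lpar3, a lysophosphatidic acid receptor, was lower (-0.75, adjusted p = 0.022), and its difference was 0.29 between single and -1.80 between double knockouts.

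Among 13 G alpha genes 3 were called, or 23.1% against 12.3% of all genes. Gnas (which encodes the stimulatory subunit) was higher by 0.16, and Gnaz and Gnai2, both of the inhibitory family, were lower by -0.85 and -0.54 (limma adjusted p = 0.0244, 0.0265 and 0.00489). Of 14 beta and gamma genes (7.14% called against 12.3% of all genes) only Gnb4 was called. It was 5.99 to 9.86 (median 9.39) in Gna11-lacking and 4.86 to 6.11 (median 5.90) in Gna12-lacking arrays (3.00 ± 0.489, adjusted p = 0.00435). Those ranges overlapped through 1 low Gna11-lacking array, and the difference was 1.77 in single and 4.23 in double knockouts.

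Downstream of Gq/11, 1 of 15 effectors was called (6.67% against 12.3% of all genes), the protein kinase C gene Prkch (-0.83, adjusted p = 0.032). Of 16 calcium and NFAT transcription factor genes 3 were lower, or 18.8% called, with a median of -0.01. They were Orai2 (-0.92), Nfatc1 (-0.77) and Ppp3r1 (-0.48), with limma adjusted p between 0.0204 and 0.0407. None of these 3 stayed called with the leukocyte or the Gapdh covariate. Of 17 genes of the G12/13 and RhoA arm, 1 was higher and 4 were lower, or 29.4% called against 12.3% of all genes. The median difference was -0.14 against 0.05 for all genes. Limk1, the kinase that inactivates cofilin downstream of RhoA, was the higher gene, at 9.63 to 10.7 (median 10.2) in Gna11-lacking and 8.63 to 9.37 (median 9.13) in Gna12-lacking arrays. Its difference of 1.11 ± 0.128 (adjusted p = 0.000906) showed no overlap and passed under all 25 alternatives. The lower genes were the RhoA exchange factor Arhgef11 (-1.03), Rhpn2 (-0.82), Rhoc (-0.41) and the formin Diaph1 (-0.38), with adjusted p between 0.00696 and 0.0453. None of the lower genes stayed called with the leukocyte or the Gapdh covariate. Of 19 regulators of G protein signalling (5.26% called against 12.3% of all genes) only Rgs10 was called (0.74, adjusted p = 0.0121).

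Of 20 serum response factor and actin genes, 1 was higher and 4 were lower, with a median of -0.34. Tpm2, a tropomyosin, was higher by 1.07 ± 0.162 (adjusted p = 0.00308), whereas the myosin light chain Myl9 (-1.04), the fibronectin receptor subunit Itga5 (-1.03), filamin Flna (-0.60) and the myosin heavy chain Myh9 (-0.28) were lower, with adjusted p between 0.0335 and 0.0477. All 5 overlapped between the sides, and none was called with the leukocyte covariate. YAP and TAZ targets gave 1 higher (Ccn1, 0.42) and 1 lower (Crim1, -0.73) of 18, and transforming growth factor beta genes 1 higher (Ltbp3, 0.50) and 1 lower (Smad3, -0.37) of 19. Of 21 immediate early genes Fos was higher (0.50, adjusted p = 0.0272), while Egr2 (-1.07), Fosl1 (-0.57), Fosl2 (-0.46) and Nr4a2 (-0.42) were lower. These shares lie on both sides of the 12.3% background.

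Type II markers were the cell type list with the most members higher in Gna11-lacking cells, 7 of 16 against 5.86% of all genes, with none lower and a median of 0.36 against 0.05. Slc34a2, the phosphate transporter of type II cells, was 9.18 to 10.1 (median 9.67) in Gna11-lacking and 8.02 to 8.73 (median 8.41) in Gna12-lacking arrays (1.23 ± 0.141, adjusted p = 0.000885). Abca3, the lipid pump of lamellar bodies, was 11.8 to 12.1 (median 12) against 10.9 to 11.6 (median 11.3), a difference of 0.77 ± 0.109 (adjusted p = 0.00239). Etv5, a transcription factor that sustains type II identity, was 7.99 to 9.27 (median 8.57) against 6.15 to 7.84 (median 7.06), a difference of 1.57 ± 0.305 (adjusted p = 0.0098). None of these 3 overlapped between the sides.

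Fasn (fatty acid synthase, 0.62), Lpcat1 (which makes surfactant phosphatidylcholine, 0.60), Napsa (a protease of surfactant protein maturation, 0.57) and Sftpb (surfactant protein B, 0.26) were also higher, with adjusted p between 0.00811 and 0.0229. In the double knockouts 7 type II markers were called, all higher, against 2.7% of all genes higher. In the single knockouts 1 was called, against 2.82% of all genes. With the leukocyte covariate the median of the list was 0.18 and none of the 7 was called, and with the Gapdh covariate Abca3 and Slc34a2 were. Fewer cells of a type and less RNA per cell cannot be told apart in such bulk samples. Of 19 cholesterol and fatty acid synthesis genes 3 were higher and none lower, against 5.86% and 6.48% of all genes. The higher genes were Lss (0.77), Fasn and Acly (0.28), and the median of the list was 0.23.

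Type I markers showed no call among 16, with a median of -0.02. Among 19 junction genes 3 were lower, the E-cadherin gene Cdh1 (-0.67, adjusted p = 0.0043), occludin Ocln (-0.85, adjusted p = 0.00633) and Cldn10 (-0.72, adjusted p = 0.0392). The sides did not overlap for Cdh1 and Ocln. In the transitional and keratin list 3 of 17 were lower, Cdkn1a (-0.68), Sfn (-0.39) and Krt19 (-0.15). Of 17 airway genes Clca1, a secretory cell protein, was higher by 1.88 (0.21 in single and 3.56 in double knockouts, adjusted p = 0.00604), and the ciliated cell genes Foxj1 (-0.81) and Tppp3 (-0.35) were lower. Clca1 averaged 5.5 in Gna11-lacking and 3.62 in Gna12-lacking arrays, the latter below the probe set median. None of 25 mitosis and replication genes was called. The shares called were 15.8% of junction, 17.6% of transitional and keratin and 17.6% of airway genes, against 12.3% of all genes.

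**Figure D4:**
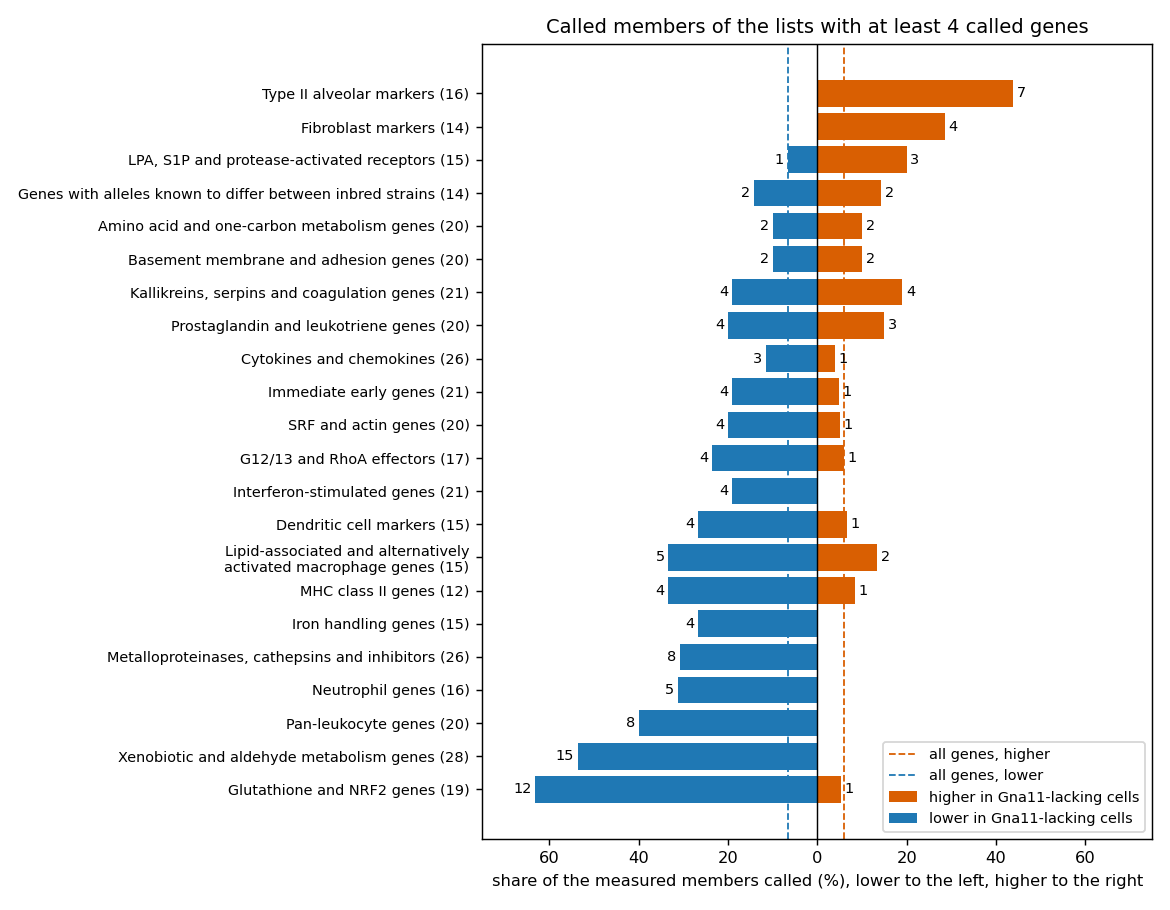
Share of the measured members called for the lists with at least 4 called genes (except a list of 4 genes chosen because earlier results separated the sides), drawn to the left of 0 where lower and to the right where higher in Gna11-lacking cells, with the number of members called beside each bar and dashed lines at the shares of all genes (6.48% lower, 5.86% higher). Of the lists drawn, type II markers extend farthest to the right, and the glutathione and xenobiotic lists farthest to the left.

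The lists with the largest share of lower members held genes of glutathione synthesis and detoxification. NRF2, encoded by Nfe2l2, is the transcription factor that drives many of them under oxidative or electrophilic stress. Of 19 glutathione and NRF2 genes, 12 were lower and 1 was higher in Gna11-lacking cells, against 6.48% and 5.86% of all genes, and the median was -0.52. It was -0.19 in single and -0.99 in double knockouts, where 3 and 8 members were lower. Across the alternatives the median stayed between -0.57 and -0.41. With the leukocyte covariate none of the 13 was called, and with the Gapdh covariate only Gclm was.

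Gclc and Gclm encode the catalytic and modifier subunits of glutamate-cysteine ligase, the first enzyme of glutathione synthesis. Gclc was 7.47 to 9.20 (median 8.35) in Gna11-lacking and 9.51 to 10.5 (median 9.90) in Gna12-lacking arrays (-1.61 ± 0.269, adjusted p = 0.00481). Gclm was 8.79 to 9.57 (median 9.20) against 9.97 to 10.7 (median 10.4), a difference of -1.15 ± 0.138 (adjusted p = 0.00107). Hmox1, the haem-degrading enzyme, was 7.00 to 7.93 (median 7.44) against 8.19 to 9.75 (median 8.46), a difference of -1.16 ± 0.255 (adjusted p = 0.017). All 3 stood apart between the sides.

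Gsr, which regenerates reduced glutathione, was lower by -0.86 and also did not overlap, and the sulfiredoxin gene Srxn1 was lower by -0.74. Several glutathione transferases and the peroxidase Gpx2 were also lower, with values that differed between the pairs. Gstm1 differed by -0.01 in single and -0.99 in double knockouts, Gsta4 by -0.09 and -0.96, Gpx2 by 0.14 and -1.24, and Gstp1 by -0.02 and -0.36. For Gstm2, with 0.19 in single and -1.30 in double knockouts, that change was itself called (limma adjusted p = 0.0114), and for the other 4 it was not. Nfe2l2 differed by -0.52 (adjusted p = 0.047), with overlap. Gstt1, a transferase of another class, was the higher member (0.39, adjusted p = 0.0145).

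The promoters of Gclm and Nfe2l2 are shown because they were the lower members of the list with the core of the antioxidant response element, searched as TGACNNNGC on both strands of the 250 bases before the start. Capitals mark the match in these 60-base windows of GRCm38.p6 (RefSeq).
Gclm, chr3:122245397-122245456, plus strand: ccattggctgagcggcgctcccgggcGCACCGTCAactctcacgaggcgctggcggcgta
Nfe2l2, chr2:75704854-75704913, minus strand: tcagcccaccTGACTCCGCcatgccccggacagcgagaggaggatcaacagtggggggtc
The Gclm match lies on the reverse strand 134 bases before the start, and the Nfe2l2 match on the forward strand 240 bases before it. The letters occurred in 2 of 8 lower members with a promoter entry and in 5 of all 15 members with 1 (Gsta3, Gstm5, Gclm, Txnrd1 and Nfe2l2). They occurred in 13.5% of all 14452 genes with an entry, 12.7% of the 872 higher and 15.2% of the 957 lower genes.

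Xenobiotic and aldehyde metabolism genes gave 15 lower and none higher of 28, with a median of -0.47. The median was 0.05 in single and -1.05 in double knockouts, where 20 members were lower, against 3.39% of all genes. In single knockouts none was lower and 1 was higher. Adh7, an alcohol dehydrogenase active on retinol, was 5.59 to 7.64 (median 6.61) in Gna11-lacking and 8.15 to 9.20 (median 8.82) in Gna12-lacking arrays (-2.26 ± 0.308, adjusted p = 0.00199). Ces1f, a carboxylesterase, was 4.39 to 7.17 (median 5.95) against 7.37 to 9.10 (median 7.93), a difference of -2.27 ± 0.235 (adjusted p = 0.000477). Cyp1b1, a cytochrome P450 induced by the aryl hydrocarbon receptor, was 5.14 to 6.54 (median 6.05) against 7.17 to 7.77 (median 7.24), a difference of -1.39 ± 0.158 (adjusted p = 0.000873).

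No arrays of the sides overlapped for these 3 genes, and Cyp1b1 passed under all 25 alternatives. The difference of Ces1f was -0.80 in single and -3.74 in double knockouts. Aldh3a1, an aldehyde dehydrogenase, was lower by -1.56 (adjusted p = 0.00709) and the flavin monooxygenase Fmo1 by -1.52 (adjusted p = 0.0151), both with overlap. With the leukocyte covariate the median of the list was -0.43 and Cyp1b1 alone stayed called, and with the Gapdh covariate Adh7, Ces1f and Cyp1b1 did. The median of the pan-leukocyte genes was -1.24 between single and -0.06 between double knockouts. The part of leukocyte RNA in both detoxification lists was not tested beyond this covariate, and the part of airway cell RNA was not tested.

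**Figure D5:**
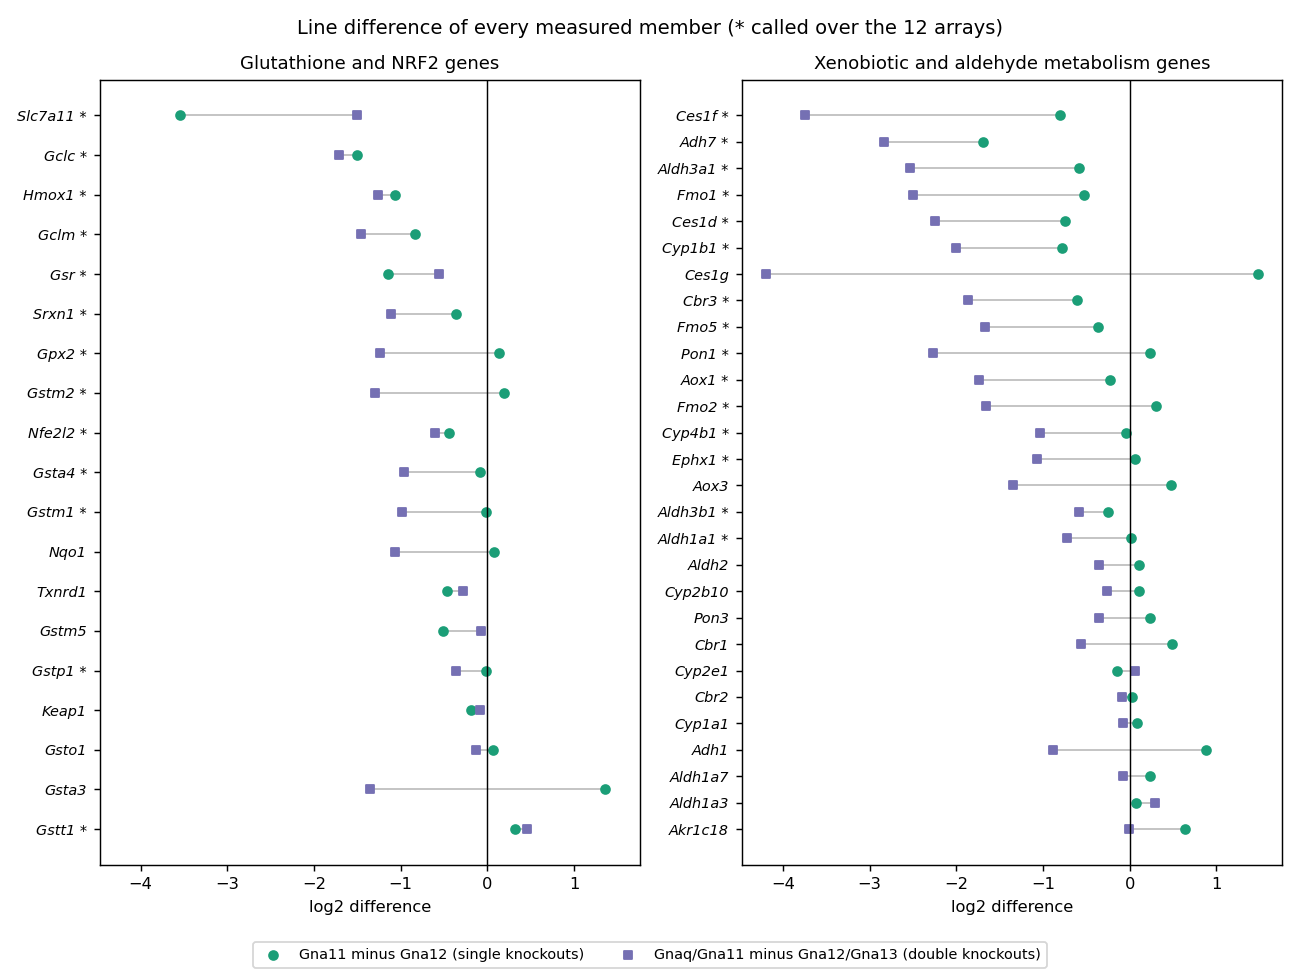
Log2 difference, Gna11-lacking minus Gna12-lacking, of every measured member of the glutathione and NRF2 list and of the xenobiotic list, given for single and for double knockouts, with called members starred. The xenobiotic median is 0.05 in single and -1.05 in double knockouts.

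Several markers of blood-derived cells were lower in Gna11-lacking cells. Of 20 pan-leukocyte genes 8 were lower and none higher, against 6.48% and 5.86% of all genes, with a median of -0.67. The median was -1.24 between single knockouts, where 7 members were lower against 1.74% of all genes. It was -0.06 between double knockouts, where none was lower and 1 was higher. Vav1 (-1.45), the actin-bundling Lcp1 (-1.22), the tetraspanin Cd53 (-1.15) and the integrin Itgb2 (-1.13) were examples, with limma adjusted p between 0.00675 and 0.0335, and all 4 overlapped between the sides. Itgb2 differed by -1.88 between single and -0.38 between double knockouts. Macrophage genes gave 3 lower of 16 and a median of -0.59, which was -1.49 in single and -0.03 in double knockouts and turned to 0.03 with the leukocyte covariate. Siglecf, a receptor of alveolar macrophages, was lower by -1.62 (adjusted p = 0.00654) and Cx3cr1 by -1.22 (adjusted p = 0.0208), both without overlap, and the mannose receptor Mrc1 by -1.22 (adjusted p = 0.0253). The list of lipid-associated and alternatively activated macrophage genes gave 5 lower and 2 higher of 15, with a median of -0.05, which turned to 0.20 with the leukocyte covariate. Fabp4, a lipid carrier of alveolar macrophages, was lower by -2.0 (adjusted p = 0.00524) without overlap, and Fabp5 (0.25, adjusted p = 0.0335) and Retnla (0.28, adjusted p = 0.0138) were higher.

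Neutrophil genes gave 5 lower of 16, against 6.48% of all genes. Cxcl2, a neutrophil-attracting chemokine, was 7.40 to 8.14 (median 7.68) in Gna11-lacking and 8.92 to 9.96 (median 9.09) in Gna12-lacking arrays (-1.52 ± 0.182, adjusted p = 0.00108). The ranges did not overlap, and the difference was -1.11 (adjusted p = 0.0806) with the leukocyte covariate. The protease Mmp8 was -3.07 in single and 0.44 in double knockouts, and Mpo, myeloperoxidase, was -0.55 and -1.39. Lymphoid genes were mostly not called, with Cd2 lower (-1.20) among 13 T and NK cell genes. Ighm, the immunoglobulin mu chain, was lower by -2.50, with -5.04 in single and 0.04 in double knockouts, while the B cell gene Fcrla was higher by 1.22.

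Siglech, a receptor of plasmacytoid dendritic cells, went the other way from most leukocyte genes. It was higher by 1.21 ± 0.212 (adjusted p = 0.00584) without overlap, and by 1.84 (adjusted p = 0.0114) with the leukocyte covariate. Dendritic cell genes otherwise gave 4 lower of 15, against 6.48% of all genes. Mast cell Cpa3, a carboxypeptidase stored with Cma1, was higher by 0.73 (adjusted p = 0.0193). It averaged 4.41 in Gna11-lacking and 3.68 in Gna12-lacking arrays, both below the probe set median. Only 3 of 14 eosinophil and mast cell genes reached that median. Of the 14, 2 were called (14.3% against 12.3% of all genes), and 11 differences were positive and 3 negative. The mast cell genes Kit (0.04), Ms4a2 (-0.10) and Fcer1a (-0.10) were not called. Endothelial genes gave no call among 16.

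Fibroblast genes gave 4 higher of 14, against 5.86% of all genes, with a median of 0.34. The collagen genes Col1a1 and Col3a1 were higher by 1.22 (adjusted p = 0.00309) and 1.14 (adjusted p = 0.0132), but differed by 0.19 and 0.03 in single knockouts and by 2.25 and 2.26 in double knockouts. Col6a1 (1.09) did not overlap between the sides, and Thy1 (0.90) did. In all, 10 of 14 members of this list reached the probe set median, and their part in the other differences was not tested.

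Antigen presentation and interferon genes gave calls in both directions. H2-Ab1, an MHC class II chain, differed by -0.82 in single and -0.10 in double knockouts (adjusted p = 0.0041 over the 12 arrays). H2-K1 (class I) differed by -1.44 and 0.00, and the antiviral Mx1 by -1.72 and 0.25. The class II gene H2-Ea was higher by 0.38 (adjusted p = 0.0366). In these lists 1 class II gene was higher and 4 lower of 12, and 2 class I genes were higher and 1 lower of 13. Of 21 interferon-stimulated genes 4 were lower. The shares called were 41.7%, 23.1% and 19%, against 12.3% of all genes. None of these called genes stayed called with the leukocyte covariate.

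Cytokine and chemokine genes gave 1 higher (Il33) and 3 lower of 26, or 15.4% called against 12.3% of all genes. Besides Il10, Ccl3 (-1.44 ± 0.182, adjusted p = 0.00132) and Ccl4 (-1.49, adjusted p = 0.018), chemokines that attract monocytes and T cells, were lower, and Ccl3 did not overlap between the sides. Of 26 metalloproteinases, cathepsins and inhibitors 8 were lower and none higher, against 6.48% and 5.86% of all genes. Among the lower were the cathepsin Ctsk (-1.57), the cathepsin inhibitor Cstb (-1.05) and the metalloproteinase Adam8 (-1.05). Among single knockouts 8 members were lower and none higher, against 1.74% of all genes lower. Among double knockouts none was lower and 3 were higher, against 2.7% of all genes higher.

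Against 5.86% higher and 6.48% lower over all genes, kallikreins, serpins and coagulation genes gave 4 higher and 4 lower of 21. Klk1, Klk13 and plasminogen (Plg, 0.38) were among the higher, and Klk11 (-0.97) and coagulation factor F10 (-1.44) among the lower. Plg averaged 4.47 in Gna11-lacking and 4.09 in Gna12-lacking arrays, both below the probe set median. Prostaglandin and leukotriene genes gave 3 higher and 4 lower of 20. Ptgds and the prostaglandin F receptor Ptgfr (1.17, with 2.15 in single and 0.20 in double knockouts) were higher. Ptgfr averaged below the probe set median over the 12 arrays. Lower were the lipoxygenase Alox12 (-1.26, adjusted p = 0.00559), the prostacyclin receptor Ptgir (-1.55) and the prostaglandin E receptor Ptger4 (-1.13), of which Alox12 and Ptger4 did not overlap between the sides.

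Of 15 iron handling genes 4 were lower, against 6.48% of all genes. They were Hamp, Hmox1, ceruloplasmin (Cp, -0.71) and the ferritin heavy chain Fth1 (-0.28). Among 20 amino acid metabolism genes 2 were higher and 2 lower, against 5.86% and 6.48% of all genes. Hal and Bhmt (betaine-homocysteine methyltransferase, 0.63) were higher, with Bhmt below the probe set median in both sides (means 4.37 and 3.73). Phgdh, the first enzyme of serine synthesis (-0.80, adjusted p = 0.00158), and glutamine synthetase Glul (-0.37, adjusted p = 0.00292) were lower. All 4 stood apart between the sides. Of 21 EGF and FGF growth factor pathway genes 2 were higher and none lower, or 9.52% called against 12.3% of all genes. The median of that list was 0.06. Among the higher was Spry1, a feedback inhibitor of receptor tyrosine kinase signalling (0.80, adjusted p = 0.00509), without overlap.

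Genes whose alleles are known to differ between inbred mouse strains were read because the strains are not given. Of 14, 2 were higher and 2 lower, against 5.86% and 6.48% of all genes. Alad, a haem synthesis enzyme whose copy number varies between strains, was 12 to 12.5 (median 12.3) in Gna11-lacking and 11.2 to 11.4 (median 11.2) in Gna12-lacking arrays. Its difference of 1.04 ± 0.0778 (adjusted p = 9.46e-05) was close to equal in single (1.05) and double (1.03) knockouts, and passed under all 25 alternatives. Naip5, whose alleles differ in Legionella resistance, was lower by -0.84 (adjusted p = 0.00528) without overlap, but averaged below the probe set median over the 12 arrays. Whether the mice differed in strain background was not tested. Xist, from the inactive X chromosome, differed by 1.26 (adjusted p = 0.0417), with 0.29 in single and 2.24 in double knockouts.

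The 13 genes with a changed difference were examined last for the second deletion. In 4 of them, AA467197, Ccr7, Ccl22 and Ccl17, the Gna11 single knockouts stood low. Ccl17, a T cell chemokine of dendritic cells, averaged 10.9 ± 0.306 in Gna11 and 13.2 ± 0.044 in Gnaq/Gna11 cells, against 12.7 ± 0.0369 in Gna12 and 12.6 ± 0.32 in Gna12/Gna13 cells (SD, n = 3 each). Its difference was -1.77 in single and 0.52 in double knockouts, a change of 2.30 ± 0.224 (limma adjusted p = 0.00886). Ccl22, which shares its receptor, changed by 3.08, Ccr7, the lymph node homing receptor, by 3.17, and AA467197 by 3.51, with adjusted p of 0.0398, 0.0413 and 0.0196. The pan-leukocyte mean was also lowest in the Gna11 arrays. Its genes had a median difference of -1.24 between single and -0.06 between double knockouts. These 4 differed by 0.33 to 0.91 between double knockouts. With the leukocyte covariate none of these 4 stayed called for a changed difference, and the part of leukocyte RNA was not separated further.

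In the other 9 the Gnaq/Gna11 cells had the lowest mean. Ces1g, a carboxylesterase, averaged 9.12 ± 0.959 in Gna11 and 5.47 ± 0.446 in Gnaq/Gna11 cells, against 7.64 ± 0.537 in Gna12 and 9.67 ± 1.17 in Gna12/Gna13 cells (SD, n = 3 each), a change of -5.68 (adjusted p = 0.0423). Pon1, a paraoxonase (-2.51, adjusted p = 0.0114), Aox3, an aldehyde oxidase (-1.82), Gstm2 (-1.49) and Ephx1, the microsomal epoxide hydrolase (-1.13) are also detoxification genes. The other members were Krtap17-1 (-1.46), the lipid-binding Osbpl6 (-1.21), the haem-binding Pgrmc1 (-1.19) and 2310034G01Rik (-0.98). In the Gnaq/Gna11 arrays, where these 9 were lowest, Eif2s3y was also low in all 3 (3.33 to 3.54), and its part was not separated from theirs. With Eif2s3y as a covariate 7 of the 13 stayed among 9 calls. With the leukocyte covariate none of the 13 stayed called (1 other gene was), and with the Gapdh covariate no gene was called (limma, 1483 at an unadjusted p under 0.05).

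Finally, the positions of the called genes were set against the deleted genes in the RefSeq gene order of GRCm38.p6. Among the 10 measured genes on each side, 2 of 20 around Gna11 were called (Nfic, 0.84, and Tle6, 1.39), 3 of 20 around Gnaq (Dtx4, -1.15, Tle4, 0.65, and E030024N20Rik, -0.49), 2 of 20 around Gna12 (Lfng, -1.04, and Iqce, -0.61) and 3 of 20 around Gna13 (Axin2, 0.37, Prkar1a, -0.53, and Fam20a, -1.76). That is close to the 12.3% of all genes. Hal lies on the chromosome of Gna11 with 84 measured genes between them, Il33 on that of Gnaq with 70 between, and Prcd on that of Gna13 with 96 between. Itga9 shares its chromosome with none of the 4. Windows of 11 neighbouring genes were then searched for the most calls. The densest, with 8 called, lay on the Itga9 chromosome, with 62 measured genes between Itga9 and Clec3b in its middle. Tmem42 (1.17), Tgm4 (0.84), Zdhhc3 (1.04) and Exosc7 (1.04) were higher there, and Cdcp1 (-0.48), Lars2 (-1.01), Limd1 (-1.89) and Sacm1l (-0.88) were lower. Other windows held 7 called genes, around Rab36 on the chromosome of Gna11 (186 measured genes from it) and around Fam222a. The share of genes called per chromosome ran from 9.06% to 17%, highest on the chromosome of the H2 genes and next (16.4%) on that of Gnaq.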

How the data were processed

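The authors made the deposited values, read here as log2 expression, with RMA per the submitters' processing notes. RMA corrects background, normalizes between arrays and summarises each probe set. No source names the logarithm's base, and every fold rests on reading it as 2. Software version: not given in the sources used here. Of 45101 probe sets 64 were controls. The platform annotation named 1 gene for 34945, several for 932 and none for 9160. Symbols of 34741 were updated by gene number through the RefSeq table of GRCm38.p6, and 204 were kept. Each of 18193 genes was represented by the probe set that was brightest on average. No probe set was filtered out as dim.

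A model with 1 mean per genotype was fitted in R 4.3.3 by limma 3.58.1 (lmFit, then trended eBayes, with 8 residual degrees of freedom and 3.19 from the prior). The contrast was the mean of Gna11 and Gnaq/Gna11 minus the mean of Gna12 and Gna12/Gna13, beside single, double and changed-difference contrasts. Tests were two-sided with Benjamini-Hochberg adjustment, called under 0.05. The number of arrays limits the precision. The model was checked on simulated data.

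The members, the 47 gene lists (801 of 865 entries measured, 64 not analysed here) and the tests were chosen with earlier results of these data known. Named were the deleted genes, up to 15 largest differences in each direction among called, non-overlapping genes at or above the median of 5.08 in 1 side, up to 4 members per list, up to 5 genes in each direction with a changed difference, and called neighbours of the deleted genes. Further called members of some lists, the 8 genes with the widest gaps and the called genes of the densest window were named as well. Other genes with a changed difference were added after their values were seen, so that all 13 are named. Same-numbered arrays were not treated as pairs, since no label pairs them and not every correlation of their deviations passed 0.1 (range -0.037 to 0.271), although replicates 2 and 3 of Gna11, Gna12 and Gna12/Gna13 correlated at 0.142 to 0.271.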

Additional observations from a re-analysis of the deposited data

Results flagged for a closer look

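For the 182 genes considered for the text, 364 groups of 6 arrays were examined for an array far from the others, by Dixon's limit on the gap to the nearest array, and 16 stood out. By chance about 1 in 20 groups would.

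Among Gna11-lacking arrays, replicate 2 of Gna11 was far from the rest for Foxj1 (7.81, nearest 7.07), Hyi (9.08, nearest 10.2) and S100a8 (8.35, nearest 9.97). In Gnaq/Gna11, replicate 2 was low for Diaph1 (10.6, nearest 11.0) and replicate 1 for Ltbp3 (12.3, nearest 12.4).

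Among Gna12-lacking arrays, replicate 2 of Gna12 was far from the rest for Egr2 (9.0, nearest 8.04), Gstt1 (11.1, nearest 11.5), Myh9 (11.4, nearest 11.2) and Prkar1a (9.34, nearest 9.60). In Gna12/Gna13, replicate 1 stood out for Ceacam10 (7.24, nearest 8.25), Clca1 (4.33, nearest 3.67) and Clec1b (8.80, nearest 10.5). Replicate 2 stood out for Fcrla (5.78, nearest 4.89), and replicate 3 for AA467197 (8.67, nearest 7.85), Hmox1 (9.75, nearest 8.65) and Itga9 (4.92, nearest 6.37).

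The difference between Gna11-lacking and Gna12-lacking cells itself changed with the second deletion for 13 genes, tested as an interaction with limma. The change, double minus single knockouts, was 3.51 for AA467197, 3.17 for Ccr7, 3.08 for Ccl22 and 2.30 for Ccl17. It was -5.68 for Ces1g, -2.51 for Pon1, -1.82 for Aox3, -1.49 for Gstm2, -1.46 for Krtap17-1, -1.21 for Osbpl6, -1.19 for Pgrmc1, -1.13 for Ephx1 and -0.98 for 2310034G01Rik.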

How the results depend on the processing

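The count of 2244 genes between the sides was 1868 in an additive model and 3399 over every probe set (45037 tested instead of 18193). Covariates for the pan-leukocyte mean and for the Gapdh 3′ minus 5′ difference gave 67 and 146, while Eif2s3y gave 2279. With a replicate block on the letter of the position code, which forms 6 pairs, 972 genes were called, 914 of them among the 2244. With the replicate number as a replicate block the counts were 2357 over all arrays, 445 for singles, 1090 for doubles and 16 for the changed difference. The 513 singles calls became 22 with only the 6 arrays of that comparison, and 0 by limma with the leukocyte or Gapdh covariate (1202 and 1387 at an unadjusted p under 0.05). The 13 changed differences became 22 without the trend, 28 with array weights, 36 over genes of at least median level, 35 with probe sets averaged, 1 (none of the 13) with the leukocyte and 0 with the Gapdh covariate (1483 unadjusted). Leaving out 1 array at a time gave 1114 to 2313 over all arrays, 62 to 736 for singles, 369 to 1259 for doubles and 0 to 40 for changed differences. The 0 came without replicate 2 of Gna12 (1755 unadjusted). Called Gna11 and Gna12 probe sets with the sign of their deletion numbered 2, and 1 with quantile normalization or, at the least, without 1 array (range 1 to 2). The cause of these changes was not tested. No called gene named in the text reversed its direction under the alternatives run. Limits: wild-type arrays were not analysed, and the column of the position code, line and any strain difference cannot be told apart. Nor can the letter of the code and the second deletion. Leukocyte genes and many airway genes were measured well above the median.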
